A study of Mus musculus with 12 samples.

Results

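Claudins, classical and related cadherins, and the scaffold and adhesion proteins of the tight junction were followed in kidney RNA from WT mice, from mice with slowly progressive cystic disease and from cystic mice that also lacked functional Casp1. The members were chosen by gene symbol among protein-coding genes: every numbered claudin (Cldn) and numbered cadherin (Cdh), and scaffold and adhesion genes of the tight junction that include Tjp1, Tjp3, Ocln, Cgn, Marveld2, Marveld3, F11r and Epcam. They numbered 57 of the 35275 genes of the deposited table, with 25 claudins, 23 cadherins and 9 scaffold and other junction genes. Poly(A) RNA was sequenced from kidneys of 12 mice aged 6 months, all on the C57BL/6J strain, with 4 mice (2 females and 2 males) in each of 3 groups. WT mice carried no mutation. RC/RC mice (Pkd1RC/RC) were homozygous for the hypomorphic RC allele of Pkd1, the gene for polycystin-1. RC/RC:Casp1KO mice carried the same Pkd1 allele and were homozygous for a small TALEN-made deletion in Casp1 that removes the codon of the active-site cysteine and a splice donor. The deletion came from a single mutation and was present in all cells of the mouse, not in a chosen cell type. Both mutant groups shared the Pkd1 allele, and the design had no Casp1KO group with normal Pkd1.

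Epithelial cells of the nephron are held together by an apical tight junction and, just below it, an adherens junction. Claudins form the strands of the tight junction and set which ions and how much water pass between cells, so each nephron segment is known by its own set of claudins. Occludin and its MARVEL relatives sit in the same strands, the zonula occludens proteins and cingulin tie the strands to actin, and JAM-A (F11r) and EpCAM act beside them in adhesion and in the stability of claudins. Cadherins are the calcium-dependent adhesion molecules of the adherens junction, with E-cadherin in most epithelia, VE-cadherin in endothelium and kidney-specific cadherin along the nephron. RNA levels of these genes do not show where the proteins lie in the cell.

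Between 18019819 and 24869454 reads were counted on genes in each library, and mitochondrial genes held 7.78% to 12.1% of them. Levels are given as counts per 1000000 reads (CPM) scaled by the TMM factor of each library, and mice are numbered 1 to 4 within a group in the order of the mouse numbers in the column names. The columns give the group of a mouse and not its sex, so no result is given by sex. Levels of different genes were compared only after division by gene length, as CPM per kilobase. Log2 fold changes, their SE and Benjamini-Hochberg adjusted p-values are from the quasi-likelihood test of edgeR, fitted to all genes with 8 mice per comparison, and a gene was called when its adjusted p was under 0.05.

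Casp1 itself was read first, as a check of the labels. Its level was 2.05, 1.29, 1.31 and 1.41 CPM in the 4 WT mice, 3.33, 3.87, 4.24 and 2.62 CPM in the RC/RC mice, and 0.665, 0.382, 1.06 and 0.667 CPM in the RC/RC:Casp1KO mice. All 4 RC/RC:Casp1KO mice were below every other mouse. Casp1 fell by 2.35 on the log2 scale (SE 0.32, edgeR adjusted p = 0.00514) in RC/RC:Casp1KO mice against RC/RC mice. Between 10 and 23 reads per mouse remained, and how many of these come from outside the deleted bases was not tested.

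Some libraries stood apart from their group on the marker lists used here. RC/RC:Casp1KO mouse 3 had 164 CPM over 4 genes known from injured tubules (Havcr1, Lcn2, Vcam1 and Krt20), where the other mice of its group had 30.9, 32.2 and 47.7 CPM. Its leukocyte markers (Ptprc, Cd3e, Cd79a and Itgam, 4 of the 5 genes listed) summed to 82.6 CPM, against 30.4, 21.8 and 33.7 CPM in its group. WT mouse 3 had 38.3 CPM over 6 urothelial markers, where the other WT mice had 8.29, 8.85 and 3.34 CPM. RC/RC mouse 1 had 120 CPM over 4 erythroid genes, below the 251, 249 and 247 CPM of its group. RC/RC mouse 2 had 283 CPM over 4 podocyte markers and 899 CPM over 5 fibroblast markers, where the other RC/RC mice had 187, 188 and 171 CPM and 518, 513 and 408 CPM. Leaving out RC/RC mouse 1 or 2 changed the calls of several members, named below. Where a leave-out gained a call, the leave-outs not named for that member and comparison gave none. Dropping the mouse nearest the other group favours a call, so such a gain only describes dependence on that mouse. Values without mouse 3 of the RC/RC:Casp1KO group are given for members that leaving it out moved most. The WT and RC/RC:Casp1KO libraries also fell into close pairs. The chi-square per degree of freedom between the counts of 2 mice was 17.7 for WT mice 1 and 2 and 16.4 for WT mice 3 and 4, against 89.8 to 127 for the other WT pairs. It was 31.8 for RC/RC:Casp1KO mice 1 and 3 and 15.7 for mice 2 and 4, against 67.1 to 93.4 for the other pairs of that group. In RC/RC mice it was lowest for mice 3 and 4 (37.2) and 67.6 to 128 for the rest. The fits hold no term for these pairs, and their part in the results was not tested.

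Of the 57 members, 33 passed the filter on low counts in every comparison, 37 in at least 1 comparison and 20 in none. The genes at 3 counts or fewer in every mouse were Cdh7, Cdh8, Cdh9, Cdh10, Cdh12, Cdh15, Cdh18, Cldn13, Cldn17, Cldn24 and Cldn26, 11 in all, and Cdh7, Cdh8, Cdh18, Cldn13 and Cldn24 had no read in any mouse. A count of 3 in the smallest library corresponds to 0.166 CPM. A further 9 members (Cdh17, Cdh19, Cdh20, Cdh22, Cdh23, Cdh26, Cldn9, Cldn14 and Cldn20) exceeded 3 counts in some mouse without passing the filter in any comparison, with group means of at most 0.655 CPM. Cldn14, which in the thick ascending limb restrains the calcium pore, was among these, with 0 to 16 reads per mouse. Cldn11, Cldn18, Cldn22 and Cldn23 were tested in some comparisons only.

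The symbols of a pair of members need care. The gene called Cldn25 in the table lies where RefSeq places Cldnd1, and the gene called Cldn26 lies where RefSeq places Tmem114, both claudin-like genes whose older names these are. Reads were counted on genes that overlap another gene for 14 members, and the sources used here do not say whether the counting used strand. For most members described below with values the overlapping genes held few reads, such as 78 on the antisense gene Gm12927 against 9308 on Cldn19 over all mice. For Tjp3, Apba3 overlaps its end by 40 bases and held 13111 reads against 5787, and for Cldn18 the antisense gene Gm16004 held 34 reads against 138.

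In WT kidneys the claudins spanned a wide range of levels per kilobase. Cldn2, which makes the leaky, cation- and water-permeable junction of the proximal tubule, led with 214 ± 40.0 CPM per kilobase (SD, n = 4), followed by Cldn10, with isoforms in the proximal tubule and the thick ascending limb, at 84.4 ± 7.71. Their ranges did not overlap each other or those of the next claudin. Cldn8, the collecting duct claudin that recruits Cldn4, stood at 39.4 ± 7.62 and overlapped Cldn12 at 27.9 ± 3.36. Below them came Cldn7 (17.8 ± 5.78), the gene listed as Cldn25 (17.0 ± 2.13) and Cldn4 (12.9 ± 3.94). Cldn7 did not overlap Cldn12 above it, and from Cldn7 to Cldn16 each overlapped the next. From Cldn16 at 8.98 ± 1.62 down to Cldn1 at 6.39 ± 1.55 each claudin overlapped the next (Cldn16, Cldn5, Cldn15, Cldn19, Cldn3 and Cldn1), and Cldn6 was far lower at 0.769 ± 0.443.

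**Figure D1:**
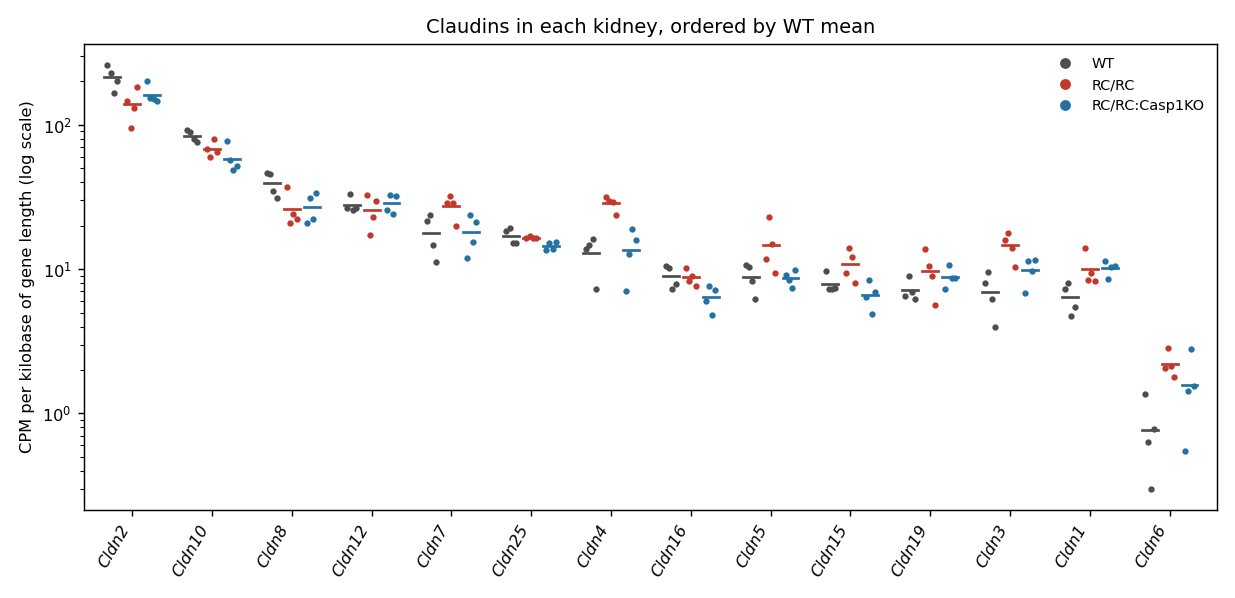
Level of each claudin tested in every comparison, in CPM per kilobase of gene length on a log axis, with a point for each of the 4 mice of a group and a bar at the group mean, ordered by the WT mean. Cldn2 and Cldn10 lie above the other claudins in every group. Cldn4, Cldn3 and Cldn6, and by a narrow margin Cldn1, have all 4 RC/RC points above all 4 WT points.

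The claudins summed to 463 ± 69.4 CPM per kilobase in WT, 405 ± 33.6 in RC/RC and 377 ± 24.9 in RC/RC:Casp1KO kidneys (SD, n = 4). Within that sum Cldn2 held 46.1% ± 3.52 in WT, 34.3% ± 7.48 in RC/RC and 43.0% ± 4.82 in RC/RC:Casp1KO mice. Cldn4 held 2.81% ± 0.95 in WT, 7.11% ± 1.06 in RC/RC and 3.69% ± 1.58 in RC/RC:Casp1KO mice. Cldn4 was the 7th claudin by level in WT, the 3rd in RC/RC and again the 7th in RC/RC:Casp1KO kidneys, and these orders are descriptions with no test.

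Among cadherins, Cdh16 (kidney-specific cadherin) held 83.0% ± 0.92 of the summed level in WT, 79.2% ± 4.41 in RC/RC and 83.0% ± 1.82 in RC/RC:Casp1KO kidneys. In WT it stood at 370 ± 21.0 CPM per kilobase, with Cdh1 (E-cadherin) next at 49.8 ± 4.14 and Cdh5 (VE-cadherin) at 12.8 ± 1.72, none overlapping the next. Cdh11 (3.55 ± 0.844), Cdh6 (2.56 ± 2.10), Cdh2 (2.32 ± 0.404), Cdh13 (2.20 ± 0.254) and Cdh3 (1.96 ± 0.338) followed, each overlapping its neighbour. Epcam (56.1 ± 19.5) and F11r (41.0 ± 11.5) were the most abundant of the remaining members, and the scaffolds Tjp1 (11.6 ± 0.828), Tjp3 (7.74 ± 1.10) and Cgn (6.00 ± 0.822) lay lower. The levels of Cdh16 and Cldn2 in every mouse, and of the endothelial Cdh5, are those of whole kidney tissue, as labelled.

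**Figure D2:**
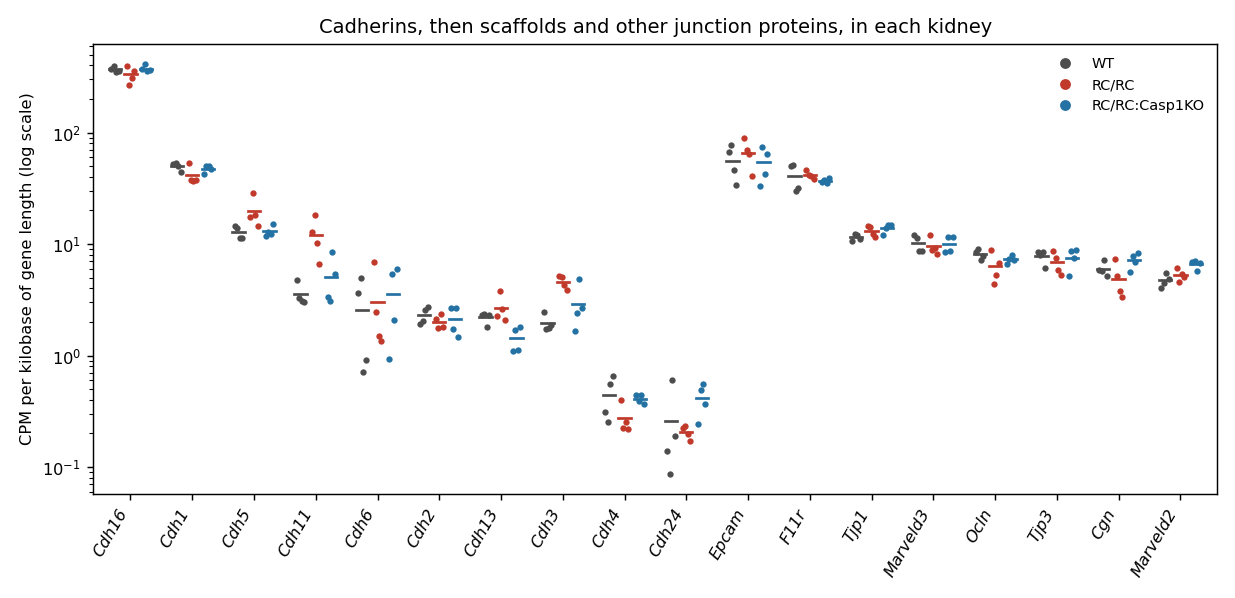
Level of the cadherins, then of 8 scaffold and other junction genes, tested in every comparison, in CPM per kilobase of gene length on a log axis, with a point for each of the 4 mice of a group and a bar at the group mean. Cdh11 and Cdh3 have all RC/RC points above all WT points, Cdh6 spreads widely within each group, and the scaffold genes overlap between WT and RC/RC.

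The comparison of RC/RC with WT kidneys asks what the Pkd1 allele changes in these genes. Cldn4, Cldn3, Cldn6, Cdh3 and Cdh11 were higher in RC/RC kidneys, by 2.10- to 3.37-fold, and edgeR called no member lower. That is 5 (14.3%) of the 35 members tested, where 9.76% of all 15243 genes tested were called higher and 3.18% lower, so the count of members lies near what all genes gave. The median log2 fold change was 0.03 over the members and -0.02 over all genes tested. All mice of the groups stood apart for 6 members, each higher in RC/RC (Cldn1 and the 5 that were called), and for none lower, where 12.6% of all genes stood apart higher and 7.05% lower. By family, 3 of 16 claudins and 2 of 10 cadherins were called, and none of the 9 scaffold and other junction genes. An unadjusted edgeR p under 0.05 was reached by 10 of the 16 claudins (7 higher and 3 lower) and 3 of the 10 cadherins (all higher). Of all genes tested 29.2% reached it, and the difference between families was not tested. With the same 8 mice DESeq2 called 9 of 43 members in either direction, where it called 16.7% of all genes. Among these members Cldn2 and Cldn8 were lower (DESeq2 adjusted p of 0.0324 and 0.0357).

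Among the claudins of the distal nephron and collecting duct, Cldn3 and Cldn4 rose while Cldn7 and Cldn8 did not pass the test. Cldn4, which forms an anion-permeable barrier with Cldn8, was at 24.8, 26.4, 29.3 and 13.1 CPM in the WT mice and at 57.004, 54.0, 53.1 and 43.0 CPM in the RC/RC mice. The groups were separated by a gap between 29.3 and 43.0 CPM. The log2 fold change was 1.15 (SE 0.22, edgeR adjusted p = 0.0103), a 2.21-fold difference. It remained called under every alternative and with each mouse left out.

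Cldn3, a sealing claudin of the distal nephron, was at 10.1, 12.04, 7.85 and 4.99 CPM in WT and at 20.1, 22.5, 17.7 and 13.1 CPM in RC/RC mice. Again no RC/RC mouse was as low as the highest WT mouse. Cldn3 had a log2 fold change of 1.07 (SE 0.27, edgeR adjusted p = 0.0289). Without WT mouse 3 it was 0.99 (edgeR adjusted p = 0.0672), and without RC/RC mouse 1, 2 or 3 the edgeR adjusted p was 0.0622, 0.0839 and 0.0645.

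Cldn3 and Cldn4 are neighbours on mouse chromosome 5, on opposite strands with 39279 bases between them. Their promoter sequences, and that of Cldn6, are shown because these are the claudins that rose together. Each runs from 250 bases before to 50 bases after the RefSeq start on build GRCm38.p6, and each RefSeq start is the first base of the gene in the deposited table. Cldn4 is chr5:134946885-134947184 on the minus strand, Cldn3 is chr5:134985964-134986263 on the plus strand and Cldn6 is chr17:23679115-23679414 on the plus strand. Capitals mark the letters of a TEAD motif (GGAATG), an AP-1 motif (TGANTCA), a Snail E-box (CAGGTG) and an HNF1 motif (GTTAAT), searched on both strands.
Cldn4: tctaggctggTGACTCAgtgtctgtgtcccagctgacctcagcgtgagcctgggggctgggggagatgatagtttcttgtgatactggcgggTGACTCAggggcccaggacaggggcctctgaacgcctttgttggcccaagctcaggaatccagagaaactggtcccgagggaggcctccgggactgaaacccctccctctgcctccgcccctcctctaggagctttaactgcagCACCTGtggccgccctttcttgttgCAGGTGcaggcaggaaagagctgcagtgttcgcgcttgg
Cldn3: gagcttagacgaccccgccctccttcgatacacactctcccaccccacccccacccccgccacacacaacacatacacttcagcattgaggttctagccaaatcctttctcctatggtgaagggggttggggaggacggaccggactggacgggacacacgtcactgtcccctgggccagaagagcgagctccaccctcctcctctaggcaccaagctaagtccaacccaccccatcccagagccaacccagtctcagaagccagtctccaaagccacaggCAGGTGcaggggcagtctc
Cldn6: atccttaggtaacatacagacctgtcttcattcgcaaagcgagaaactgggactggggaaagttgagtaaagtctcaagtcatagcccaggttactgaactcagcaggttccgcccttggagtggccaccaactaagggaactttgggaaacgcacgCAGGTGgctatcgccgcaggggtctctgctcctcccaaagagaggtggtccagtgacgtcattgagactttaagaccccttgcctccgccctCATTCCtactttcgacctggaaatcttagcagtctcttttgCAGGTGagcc
The Cldn4 window held the AP-1 letters at 240 and 158 bases before the start and the E-box letters at 14 bases before the start and at base 12 of the transcript. In the Cldn3 window the only match was the E-box letters at base 32 of the transcript, and Cldn6 had these letters at 93 bases before the start and at base 41, with the TEAD letters from the base before the start. The E-box letters occur in 20.2%, the AP-1 letters in 7.81%, the TEAD letters in 14.7% and the HNF1 letters in 7.10% of 32851 RefSeq promoter windows of the same length. A match describes letters in a window and was not tested as a binding site.

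Cldn7, present along the distal nephron and collecting duct, was at 28.7, 31.6, 19.6 and 15.1 CPM in WT and 38.2, 42.9, 38.6 and 26.6 CPM in RC/RC mice. The groups overlapped, and the log2 fold change was 0.62 (SE 0.24, edgeR adjusted p = 0.118). Cldn8 had the opposite sign. It was at 109, 107, 82.0 and 73.2 CPM in WT and 87.2, 49.4, 56.7 and 52.4 CPM in RC/RC mice, with a log2 fold change of -0.59 (SE 0.20, edgeR adjusted p = 0.0898). RC/RC mouse 1 alone lay within the WT range, and without it Cldn8 was called lower (log2 fold change -0.83, edgeR adjusted p = 0.0171). The other leave-outs gave no call, with edgeR adjusted p up to 0.201. With all 8 mice DESeq2 called Cldn8 lower (log2 fold change -0.61, DESeq2 adjusted p = 0.0357).

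As a ratio per kilobase within each kidney, Cldn4 was 23.3% to 46.6% of Cldn8 in WT mice and 85.1% to 142% in RC/RC mice. The ratio in RC/RC:Casp1KO mice was 33.8%, 40.9%, 85.1% and 46.8%, so that only mouse 3 of that group reached the lowest RC/RC value to 3 digits. Against Cldn2 the Cldn4 level was 3.62% to 9.75% in WT, 12.9% to 31.2% in RC/RC and 3.52% to 12.5% in RC/RC:Casp1KO mice. These pairs were chosen after the values were seen and carry no test.

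**Figure D3:**
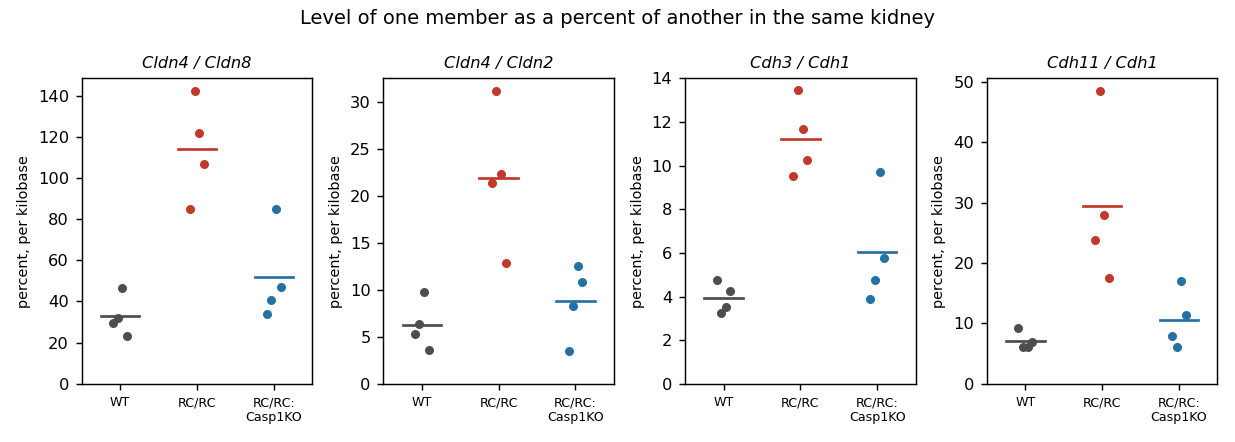
Level of the first gene as a percent of the second in the same kidney, both per kilobase of gene length, with a point for each of the 4 mice of a group and a bar at the mean. For all 4 pairs the RC/RC points lie above all WT points, with Cldn4 at 85.1% to 142% of Cldn8 in RC/RC against 23.3% to 46.6% in WT. In each pair the first gene was called higher in RC/RC and the second had a negative log2 fold change, which favours this separation.

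The markers of the cells in which these claudins are known moved as follows. Principal cell markers (Aqp2, Aqp3, Scnn1b, Scnn1g and Hsd11b2, 5 of 5 in the table) summed to 716, 915, 706 and 466 CPM in WT and 1035, 1308, 1396 and 1047 CPM in RC/RC mice, with Aqp2 the most abundant and none of the 5 called. Distal convoluted tubule markers summed to 1018 ± 157 CPM in WT against 258 ± 118 CPM in RC/RC, with Slc12a3 and Pvalb called lower and Slc12a3 the most abundant. In bulk tissue fewer cells of a type and less RNA per cell cannot be told apart. The part of cell numbers in the claudin differences was not tested.

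Claudins of the proximal tubule and thick ascending limb were not called by edgeR with all 8 mice. Cldn2 was at 790, 700, 506 and 609 CPM in WT and 449, 292, 399 and 562 CPM in RC/RC mice, with only RC/RC mouse 4 inside the WT range. Its log2 fold change was -0.61 (SE 0.22, edgeR adjusted p = 0.0958), and without that mouse it was -0.78 (edgeR adjusted p = 0.0391). No other leave-out gave a call for Cldn2 (edgeR adjusted p up to 0.211). With all 8 mice DESeq2 called Cldn2 lower (log2 fold change -0.63, DESeq2 adjusted p = 0.0324). Cldn10 was at 197, 189, 169 and 162 CPM in WT and 144, 127, 170 and 139 CPM in RC/RC mice (log2 fold change -0.31, SE 0.13, edgeR adjusted p = 0.144). RC/RC mouse 3 was inside the WT range. Proximal tubule markers (6 of 6 in the table, Slc34a1 the most abundant) summed to 10326 ± 2023 CPM in WT against 6062 ± 2309 CPM in RC/RC, with Slc5a2 called lower and the other 5 not called.

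Cldn16 and Cldn19 pair to form the pore through which the thick ascending limb takes up magnesium and calcium. Cldn16 was at 12.4, 11.9, 8.55 and 9.28 CPM in WT and 11.9, 9.64, 10.6 and 8.96 CPM in RC/RC mice (log2 fold change -0.04, SE 0.17, edgeR adjusted p = 0.908). Its 95% interval ran from -0.36 to 0.29. Cldn19 was at 27.1, 37.6, 29.1 and 26.0 CPM in WT and 57.5, 43.5, 37.5 and 23.4 CPM in RC/RC mice (log2 fold change 0.43, SE 0.24, edgeR adjusted p = 0.269). The RC/RC mice of Cldn19 lay both above and below the WT range.

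Of the claudins known from the glomerulus, Cldn6, a claudin of developing epithelia and of podocytes, rose. It was at 2.05, 0.952, 0.453 and 1.18 CPM in WT and 3.10, 4.29, 3.22 and 2.70 CPM in RC/RC mice, a low level in both groups without overlap. Cldn6 had a log2 fold change of 1.51 (SE 0.40, edgeR adjusted p = 0.0351). The call was lost without WT mouse 2 or 4 (edgeR adjusted p of 0.0849 and 0.0876) and without RC/RC mouse 1, 2 or 3 (0.0605, 0.1004 and 0.0775). Podocyte markers (4 of 4 in the table, Synpo the most abundant) summed to 230 ± 52.5 CPM in WT against 207 ± 51.1 CPM in RC/RC. Synpo held a larger share of the sum in RC/RC than in WT mice. The median log2 fold change over the 4 markers was -0.47, with Nphs1 called lower.

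Cldn1, found in the parietal cells of Bowman's capsule, was at 23.7, 26.1, 15.3 and 17.8 CPM in WT and 45.2, 27.4, 30.7 and 26.8 CPM in RC/RC mice. The groups stood apart by a narrow margin, from 26.1 to 26.8 CPM, and the log2 fold change was 0.65 (SE 0.22, edgeR adjusted p = 0.0812). DESeq2 and the edgeR fit of all 12 mice called Cldn1 higher (adjusted p of 0.0462 and 0.0423). Cldn5, the claudin of endothelium and podocytes, was at 15.2, 14.7, 11.6 and 8.76 CPM in WT and 16.6, 32.5, 21.1 and 13.3 CPM in RC/RC mice. Its log2 fold change was 0.73 (SE 0.28, edgeR adjusted p = 0.120), with RC/RC mouse 2 far above the rest.

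The remaining claudins tested did not pass the test. Cldn15 had a log2 fold change of 0.46 (SE 0.19, edgeR adjusted p = 0.144), Cldn12 of -0.13, the gene listed as Cldn25 of -0.04, Cldn22 of -0.08 and Cldn18 of -0.49 (SE 1.14). Cldn11 was not tested here, and 167 of the reads on it in WT came from mouse 3, against 3 to 6 in each other WT mouse.

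**Figure D4:**
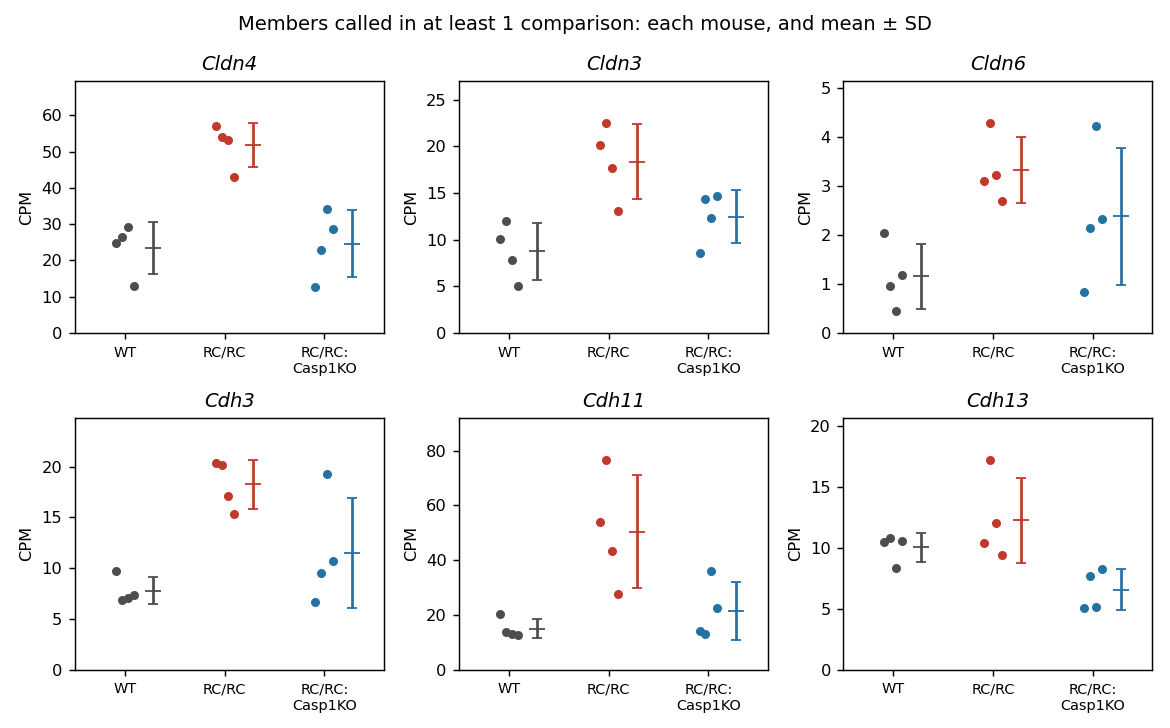
Level in CPM, on axes that start at 0, of the 6 members called in at least 1 comparison, with a point for each of the 4 mice of a group and the mean ± SD beside them. Cldn4, Cldn3, Cldn6, Cdh3 and Cdh11 are above WT in every RC/RC mouse, and Cldn4 and Cdh13 are below RC/RC in every RC/RC:Casp1KO mouse.

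Of the cadherins, Cdh3 and Cdh11 rose in RC/RC kidneys. Cdh3 (P-cadherin), a classical cadherin of basal and developing epithelia, was at 9.77, 6.90, 7.04 and 7.40 CPM in WT and 20.4, 20.1, 17.1 and 15.3 CPM in RC/RC mice. Each RC/RC mouse exceeded the highest WT mouse by a wide margin, and the spread within groups was small. The log2 fold change was 1.23 (SE 0.16, edgeR adjusted p = 0.00171), and it was called in all 14 alternatives and leave-outs. Cdh3 lies 46442 bases from Cdh1 on chromosome 8, on the same strand, and Cdh1 was not called.

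Cdh11 (OB-cadherin), a type II cadherin of mesenchymal cells and fibroblasts, was at 20.2, 13.9, 13.03 and 12.7 CPM in WT and 53.8, 76.7, 43.4 and 27.7 CPM in RC/RC mice. All RC/RC mice were above all WT mice, and RC/RC mice differed among themselves more than WT mice did. Its log2 fold change was 1.75 (SE 0.29, edgeR adjusted p = 0.00521), the largest of the 35 members tested in this comparison, and it was called in all 14 alternatives and leave-outs. Fibroblast markers (Pdgfra, Pdgfrb, Col1a1, Dcn and Lum, 5 of 5 in the table) moved with it. They summed to 173, 126, 153 and 163 CPM in WT and 518, 899, 513 and 408 CPM in RC/RC mice, with Col1a1 the most abundant, all 5 called higher and none at or near 0 counts. Their part in the Cdh11 difference was not tested.

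E-cadherin did not share this. Cdh1 was at 229, 236, 222 and 195 CPM in WT and 238, 166, 164 and 167 CPM in RC/RC mice (log2 fold change -0.26, SE 0.15, edgeR adjusted p = 0.277). RC/RC mouse 1 was the highest of the 8 mice and the other 3 RC/RC mice were below all WT mice. Without RC/RC mouse 1 the log2 fold change was -0.43 (edgeR adjusted p = 0.0486), and no other leave-out gave a call (edgeR adjusted p up to 0.485). Within each kidney Cdh3 was 3.26% to 4.75% of Cdh1 in WT and 9.54% to 13.5% in RC/RC, per kilobase and with no test. Cdh11 was 6.16% to 9.28% of Cdh1 in WT and 17.4% to 48.4% in RC/RC, likewise with no test. Both first genes were called higher and Cdh1 had a negative log2 fold change, which favours such a shift.

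Cdh16, the most abundant member, was at 1122, 1195, 1054 and 1072 CPM in WT and 1187, 809, 933 and 1075 CPM in RC/RC mice (log2 fold change -0.15, SE 0.15, edgeR adjusted p = 0.540). Cdh2 (N-cadherin), which the proximal tubule carries, was at 9.20, 9.95, 12.4 and 13.3 CPM in WT and 10.3, 8.47, 11.5 and 8.75 CPM in RC/RC mice (log2 fold change -0.20, SE 0.17, edgeR adjusted p = 0.456). The groups overlapped for both.

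Cdh6 (K-cadherin), a cadherin of the developing nephron, was at 9.53, 13.2, 1.86 and 2.40 CPM in WT and 18.2, 6.41, 3.92 and 3.56 CPM in RC/RC mice. It varied more within groups than between them. Both mice of a close pair in WT (1 and 2) were above the other pair, as were RC/RC:Casp1KO mice 2 and 4 above mice 1 and 3 of their group. In RC/RC against WT the log2 fold change of 0.26 had an SE of 0.70 (edgeR adjusted p = 0.835). Cdh5 was at 58.3, 55.1, 45.3 and 44.8 CPM in WT and 70.2, 114, 73.3 and 57.5 CPM in RC/RC mice (log2 fold change 0.63, SE 0.20, edgeR adjusted p = 0.0708). The lowest RC/RC mouse lay just within the WT range. DESeq2 and the edgeR fit of all 12 mice called Cdh5 higher (adjusted p of 0.0377 and 0.0353), as did edgeR without RC/RC mouse 4 (log2 fold change 0.75, adjusted p = 0.0303). Endothelial markers (6 of 6 in the table, none called) summed to 531 ± 68.7 CPM in WT against 622 ± 109 CPM in RC/RC, with RC/RC mouse 2 highest for these, for Cdh5 and for Cldn5. Log2 fold changes of Cdh13, Cdh4 and Cdh24 were 0.29, -0.70 and -0.30, none called.

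None of the 9 scaffold and other junction genes reached an unadjusted p of 0.05 in RC/RC against WT mice with edgeR, where 29.2% of all genes tested did. DESeq2 called none of them, and 16.7% of all genes. Tjp1 (ZO-1) was at 75.2, 87.3, 85.5 and 77.9 CPM in WT and 103, 99.5, 86.3 and 81.7 CPM in RC/RC mice (log2 fold change 0.18, SE 0.11, edgeR adjusted p = 0.299). Ocln was at 34.3, 36.5, 29.2 and 31.9 CPM in WT and 36.0, 17.9, 21.3 and 27.1 CPM in RC/RC mice (log2 fold change -0.36, SE 0.20, edgeR adjusted p = 0.256). The mice RC/RC 2, 3 and 4 were below all WT mice for Ocln. F11r was at 126, 130, 76.0 and 80.4 CPM in WT and 117, 104.5, 103 and 96.2 CPM in RC/RC mice (log2 fold change 0.03, SE 0.19, edgeR adjusted p = 0.939).

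Epcam was at 138, 156, 94.0 and 69.4 CPM in WT and 182, 143, 132 and 83.9 CPM in RC/RC mice (log2 fold change 0.24, SE 0.29, edgeR adjusted p = 0.608). Its 95% interval, -0.32 to 0.80, leaves room for an increase of the size seen for Cldn7. The log2 fold changes of Tjp3, Cgn, Marveld2 and Marveld3 were -0.18, -0.29, 0.16 and -0.08.

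**Figure D5:**
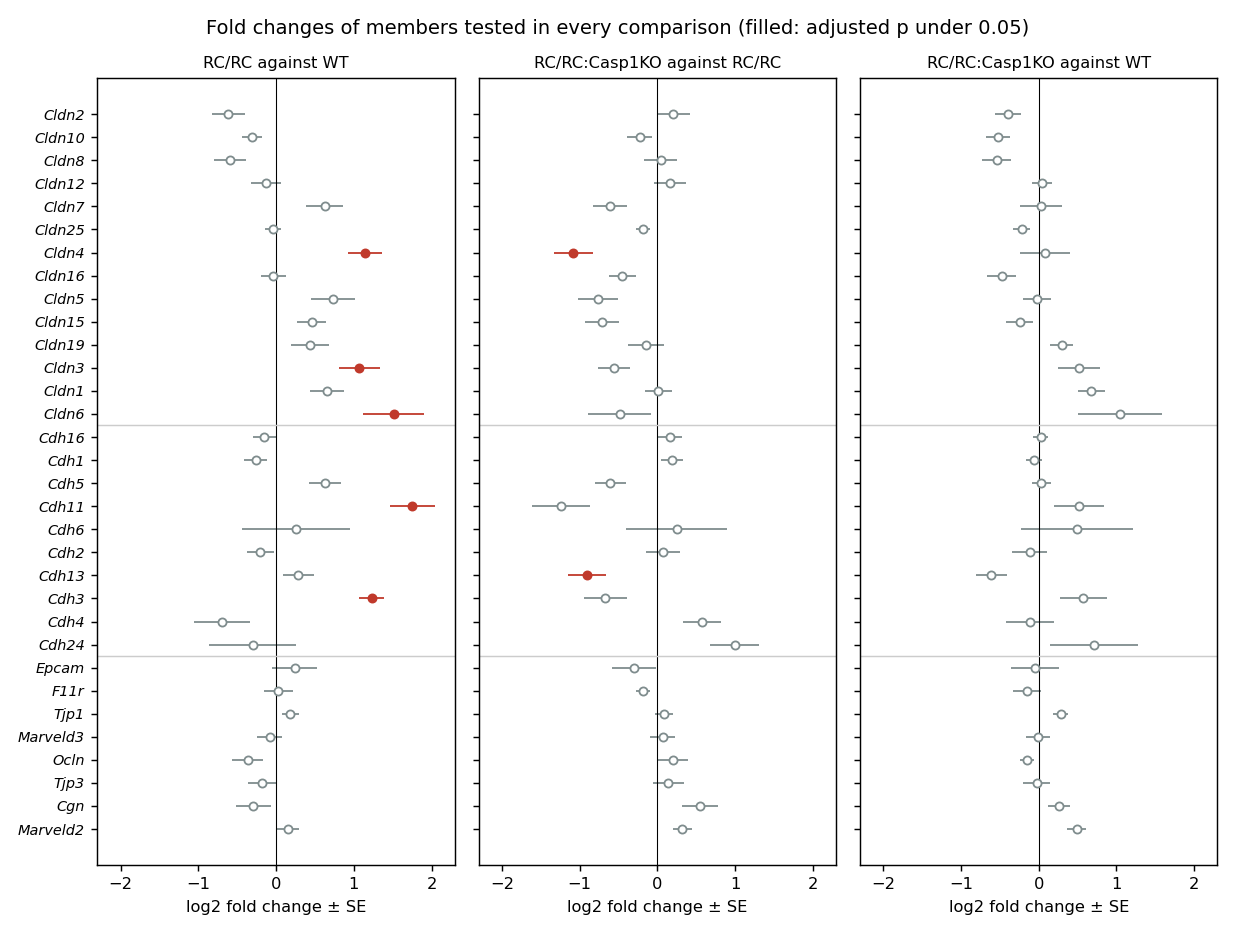
Log2 fold change ± SE (edgeR, 8 mice per comparison) of 32 members tested in every comparison, with claudins, cadherins, and scaffold and other junction genes separated by lines. Filled red points have an adjusted p under 0.05, which are 5 in RC/RC against WT, Cldn4 and Cdh13 in RC/RC:Casp1KO against RC/RC, and none in RC/RC:Casp1KO against WT.

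The comparison of RC/RC:Casp1KO with RC/RC kidneys asks what the loss of Casp1 changes in the cystic kidney. Cldn4 and Cdh13 were lower in RC/RC:Casp1KO kidneys and no member was called higher. This is 2 (5.71%) of 35 members tested, where 4.41% of all 15428 genes tested were called lower and 7.23% higher, so the share of members lower is near that of all genes. All mice of the groups stood apart for 4 members lower (Cldn4, Cldn16, the gene listed as Cldn25 and Cdh13) and 1 higher (Cdh24), where 8.65% of all genes stood apart lower and 11.8% higher. The median log2 fold change was -0.09 over the members and -0.03 over all genes tested. It was -0.34 over the 16 claudins tested, 12 of which had a negative value, 0.12 over the 10 cadherins (4 negative) and 0.08 over the 9 scaffold and other junction genes (2 negative). Of all genes tested 8092 of 15428 had a negative value.

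Cldn4 was at 12.8, 22.9, 34.3 and 28.6 CPM in RC/RC:Casp1KO mice, all below the lowest RC/RC mouse at 43.0 CPM. It fell by 1.08 on the log2 scale (SE 0.25, edgeR adjusted p = 0.0297). Without RC/RC:Casp1KO mouse 3 the log2 fold change was -1.27 (edgeR adjusted p = 0.0210). The call was lost without RC/RC mouse 2 or 3 (edgeR adjusted p of 0.0741 and 0.0762) and without RC/RC:Casp1KO mouse 2 or 4 (0.0776 and 0.0645), with log2 fold changes between -1.16 and -1.04. With scaling by library size alone it was also lost (log2 fold change -1.02, edgeR adjusted p = 0.0644).

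Tubule markers moved in the same comparison. Proximal tubule markers summed to 10273 ± 1085 CPM in RC/RC:Casp1KO mice against 6062 ± 2309 CPM in RC/RC mice, with Lrp2 of the 6 called higher. Distal convoluted tubule markers summed to 681 ± 251 CPM against 258 ± 118 CPM, with Slc12a3 of the 3 called higher. Principal cell markers summed to 880, 1059, 826 and 945 CPM in RC/RC:Casp1KO mice, with mouse 2 alone inside the RC/RC range and none of the 5 called. Their part in the Cldn4 difference was not tested.

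Cdh13 (T-cadherin), a cadherin without a cytoplasmic tail that binds adiponectin on vascular cells, was at 5.04, 7.71, 5.16 and 8.25 CPM in RC/RC:Casp1KO mice and at 10.4, 17.2, 12.03 and 9.43 CPM in RC/RC mice. The WT mice were at 10.4, 10.8, 8.30 and 10.6 CPM, so the RC/RC:Casp1KO mice were below all mice of both other groups. It fell by 0.91 on the log2 scale against RC/RC (SE 0.24, edgeR adjusted p = 0.0432). This call was lost in 6 of the 8 fits that leave out a mouse, with edgeR adjusted p of 0.115 and 0.0995 without RC/RC mouse 2 or 3 and of 0.0903, 0.0752, 0.0843 and 0.0697 without RC/RC:Casp1KO mouse 1, 2, 3 or 4. Scaling by library size alone also lost it (log2 fold change -0.86, edgeR adjusted p = 0.0791). Endothelial markers summed to 498 ± 45.3 CPM in RC/RC:Casp1KO mice, with none of 6 called against RC/RC.

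The other members that had risen in RC/RC were not called by edgeR with all 8 mice. Cdh11 was at 14.2, 12.9, 36.0 and 22.5 CPM in RC/RC:Casp1KO mice, with mouse 3 inside the RC/RC range (log2 fold change -1.24, SE 0.37, edgeR adjusted p = 0.0581). DESeq2 with the same 8 mice and the edgeR fit of all 12 mice called Cdh11 lower (adjusted p of 0.00704 and 0.0418). Without RC/RC:Casp1KO mouse 3 its log2 fold change was -1.60 (edgeR adjusted p = 0.0270), and without RC/RC mouse 4 it was -1.44 (edgeR adjusted p = 0.0358). Fibroblast markers summed to 168, 188, 333 and 257 CPM in these mice, with mouse 3 again highest and Col1a1, Dcn and Lum called lower than in RC/RC. Cdh3 was at 6.65, 9.55, 19.2 and 10.7 CPM (log2 fold change -0.67, SE 0.28, edgeR adjusted p = 0.132), and without mouse 3 its log2 fold change was -1.03 (edgeR adjusted p = 0.0177).

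Cldn3 was at 8.59, 14.4, 12.3 and 14.6 CPM in RC/RC:Casp1KO mice (log2 fold change -0.56, SE 0.20, edgeR adjusted p = 0.0985). Cldn6 was at 0.832, 2.14, 4.24 and 2.34 CPM, with mouse 3 once more the highest (log2 fold change -0.48, SE 0.40, edgeR adjusted p = 0.438). Without mouse 3 the log2 fold change of Cldn6 was -0.90 (edgeR adjusted p = 0.146). Cldn7 was at 16.0, 31.5, 20.7 and 28.2 CPM (log2 fold change -0.61, SE 0.22, edgeR adjusted p = 0.0966), and Cldn8 was at 49.1, 72.9, 52.5 and 79.6 CPM (log2 fold change 0.04, SE 0.21, edgeR adjusted p = 0.911). RC/RC:Casp1KO mouse 3 thus had the group's highest level of Cldn4, Cldn6, Cdh3 and Cdh11 together with its highest fibroblast, leukocyte and injured tubule sums, and this coincidence was not tested. For Cldn3, which had also risen in RC/RC, and for Cldn7, mice 2 and 4 of the group were above mouse 3.

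Claudins of the proximal tubule, thick ascending limb and glomerulus gave no edgeR call with all 8 mice. Cldn2 was at 610, 465, 461 and 442 CPM in RC/RC:Casp1KO mice (log2 fold change against RC/RC 0.20, SE 0.21, edgeR adjusted p = 0.538). Cldn10 was at 164, 121, 103 and 110 CPM (log2 fold change -0.23, SE 0.17, edgeR adjusted p = 0.371). Cldn16 was at 7.10, 8.94, 5.66 and 8.44 CPM, all just below the RC/RC mice (log2 fold change -0.45, SE 0.18, edgeR adjusted p = 0.115). Its partner Cldn19 was at 30.3, 44.3, 36.0 and 36.2 CPM, inside the RC/RC range (log2 fold change -0.14, SE 0.23, edgeR adjusted p = 0.701).

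Cldn1 was at 36.9, 27.6, 33.4 and 34.0 CPM in RC/RC:Casp1KO mice, with a log2 fold change of 0.01 against RC/RC (SE 0.17, edgeR adjusted p = 0.967, 95% interval -0.32 to 0.35). Cldn5 was at 12.97, 11.9, 10.4 and 14.0 CPM (log2 fold change -0.76, SE 0.25, edgeR adjusted p = 0.0754), with RC/RC:Casp1KO mouse 4 just inside the RC/RC range. Without RC/RC mouse 4 Cldn5 was called lower (log2 fold change -0.93, edgeR adjusted p = 0.0364). Cldn15 was at 12.2, 16.0, 9.25 and 13.3 CPM (log2 fold change -0.71, SE 0.21, edgeR adjusted p = 0.0584), and it was called lower without RC/RC mouse 1 or 4 (log2 fold changes of -0.79 and -0.83, edgeR adjusted p of 0.0478 and 0.0385). The log2 fold changes of Cldn12, Cldn11, Cldn23 and the gene listed as Cldn25 were 0.16, -0.09, -0.49 and -0.19.

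Cdh5 was at 46.9, 50.9, 49.0 and 60.9 CPM in RC/RC:Casp1KO mice, overlapping the lowest RC/RC mouse (log2 fold change -0.61, SE 0.20, edgeR adjusted p = 0.0707), and without RC/RC mouse 4 Cdh5 was called lower (-0.72, edgeR adjusted p = 0.0398). DESeq2 with all 8 mice also called Cdh5 lower (log2 fold change -0.60, DESeq2 adjusted p = 0.0367). Cdh1 was at 190, 223, 221 and 207 CPM (log2 fold change 0.19, SE 0.14, edgeR adjusted p = 0.389) and Cdh16 at 1120, 1226, 1071 and 1091 CPM (log2 fold change 0.16, SE 0.16, edgeR adjusted p = 0.506). Both were within the range of the WT mice or close to it. Cdh2 was at 12.9, 8.32, 12.9 and 7.15 CPM (log2 fold change 0.07, SE 0.22, edgeR adjusted p = 0.855) and Cdh6 at 2.44, 14.2, 5.43 and 15.8 CPM (log2 fold change 0.25, SE 0.65, edgeR adjusted p = 0.824). Cdh24, a type II cadherin at only 0.472 to 0.635 CPM in RC/RC mice, was at 0.665 to 1.52 CPM in RC/RC:Casp1KO mice (log2 fold change 1.00, SE 0.32, edgeR adjusted p = 0.0680), and the log2 fold change of Cdh4 was 0.57. Without RC/RC mouse 1 Cdh4 was called higher (0.79, edgeR adjusted p = 0.0455).

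With all 8 mice the scaffold and other junction genes gave no call. Tjp1 was at 85.6, 98.4, 105.5 and 105.3 CPM in RC/RC:Casp1KO mice (log2 fold change against RC/RC 0.08, SE 0.11, edgeR adjusted p = 0.637). Ocln was at 27.1, 29.8, 32.3 and 29.4 CPM (log2 fold change 0.20, SE 0.19, edgeR adjusted p = 0.503). F11r was at 89.9, 95.5, 88.0 and 97.9 CPM (log2 fold change -0.19, SE 0.09, edgeR adjusted p = 0.207) and Epcam at 67.9, 153, 87.6 and 132 CPM (log2 fold change -0.30, SE 0.29, edgeR adjusted p = 0.502). Of the rest, Cgn (0.55, edgeR adjusted p = 0.138) and Marveld2 (0.32, edgeR adjusted p = 0.111) had the larger log2 fold changes, with Cgn called higher without RC/RC mouse 1 (0.79, edgeR adjusted p = 0.0274), and those of Tjp3 and Marveld3 were 0.14 and 0.07.

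Between RC/RC:Casp1KO and WT kidneys, which differ in both alleles, no member of the 34 tested was called with edgeR, where 1.13% of all 15346 genes tested were called higher and 0.893% lower. At an unadjusted p under 0.05 there were 3 members higher and 5 lower, where 11.8% of all genes were higher and 9.99% lower. DESeq2 called 4 of 43 members (Cldn1 and Marveld2 higher, Cldn10 and Cdh13 lower), where it called 4.37% of all genes higher and 3.21% lower. Both counts lie near those of all genes. All mice of the groups stood apart for Cldn1 and Marveld2, both higher, and for Cdh13, lower, where 7.41% of all genes stood apart higher and 6.5% lower. The median log2 fold change was 0.01 over the members and 0.01 over all genes tested.

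Marveld2 (tricellulin), which seals the points where 3 cells meet, was at 12.4, 13.8, 16.9 and 15.0 CPM in WT mice. It was at 18.6, 13.9, 16.6 and 15.6 CPM in RC/RC mice and at 21.3, 21.6, 17.6 and 20.6 CPM in RC/RC:Casp1KO mice. The log2 fold change of RC/RC:Casp1KO against WT was 0.49 (SE 0.12, edgeR adjusted p = 0.0788), the smallest adjusted p among members. That of Cldn1 was 0.67 (SE 0.17, edgeR adjusted p = 0.0875), with all 4 mice above the WT mice as in RC/RC kidneys. The log2 fold change was -0.61 for Cdh13 (SE 0.20, edgeR adjusted p = 0.138), -0.53 for Cldn10 (SE 0.15, edgeR adjusted p = 0.112), -0.54 for Cldn8 (SE 0.19, edgeR adjusted p = 0.159) and -0.48 for Cldn16 (SE 0.19, edgeR adjusted p = 0.190). Without RC/RC:Casp1KO mouse 1 Cldn10 was called lower (-0.69, edgeR adjusted p = 0.0259).

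For the members that had risen in RC/RC kidneys the values against WT were small or wide. The log2 fold change was 0.08 for Cldn4 (SE 0.32, edgeR adjusted p = 0.902, 95% interval -0.55 to 0.71), 0.52 for Cldn3 (SE 0.27, edgeR adjusted p = 0.298) and 1.05 for Cldn6 (SE 0.54, edgeR adjusted p = 0.288). It was 0.57 for Cdh3 (SE 0.30, edgeR adjusted p = 0.294) and 0.52 for Cdh11 (SE 0.32, edgeR adjusted p = 0.366). Without RC/RC:Casp1KO mouse 3 these values were 0.62 for Cldn6, 0.21 for Cdh3 and 0.15 for Cdh11 (edgeR adjusted p of 0.594, 0.649 and 0.794), and that of Cldn4 was -0.12 (edgeR adjusted p = 0.880). The RC/RC mice enter both of the other comparisons, so a member that is high in them tends to be higher in one and lower in the other.

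Among the members with full values, the log2 fold change of RC/RC:Casp1KO against WT was -0.39 for Cldn2, 0.30 for Cldn19, 0.03 for Cldn7, -0.02 for Cldn5, 0.28 for Tjp1, -0.15 for Ocln, -0.15 for F11r and -0.05 for Epcam. For the cadherins it was -0.06 for Cdh1, -0.12 for Cdh2, 0.03 for Cdh5, 0.50 for Cdh6 and 0.02 for Cdh16. The SE of these 13 values ran from 0.10 to 0.72 and their edgeR adjusted p from 0.150 to 0.964. The interval of Cdh16, from -0.17 to 0.22, was among the narrowest, and that of Cdh6, from -0.91 to 1.91, the widest of the 13. Of the other members tested, the log2 fold change was 0.04 for Cldn12, -0.24 for Cldn15, -0.23 for Cldn18, -0.22 for the gene listed as Cldn25, -0.11 for Cdh4, 0.71 for Cdh24, -0.03 for Tjp3, 0.27 for Cgn and -0.01 for Marveld3.

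Beyond the members, 28 other junction genes were read from a list of polarity, scaffold, JAM, angulin, nectin, catenin and desmosome genes, all of them tested. In RC/RC against WT 1 was higher and 1 lower, beside 9.76% and 3.18% of all genes, with a median log2 fold change of -0.12. Pvrl2 (nectin-2), which starts adherens junctions, was at 39.9, 39.4, 32.0 and 27.7 CPM in WT and 54.3, 63.0, 54.4 and 40.6 CPM in RC/RC mice (log2 fold change 0.61, SE 0.16, edgeR adjusted p = 0.0375). Ildr2, an angulin of tricellular junctions, was at 144, 107, 109 and 115 CPM in WT and 71.1, 48.0, 60.4 and 100 CPM in RC/RC mice (log2 fold change -0.76, SE 0.21, edgeR adjusted p = 0.0465). The groups did not overlap for either gene.

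In RC/RC:Casp1KO against RC/RC 1 of the 28 was higher and none lower, beside 7.23% and 4.41% of all genes, with a median log2 fold change of 0.06. Mllt4 (afadin), which links nectins to actin, was at 110, 85.4, 83.0 and 92.0 CPM in RC/RC and 117, 130, 139 and 123 CPM in RC/RC:Casp1KO mice (log2 fold change 0.46, SE 0.11, edgeR adjusted p = 0.0366). Its WT mice, at 98.6, 108, 145 and 135 CPM, were all above 3 of the 4 RC/RC mice and overlapped the RC/RC:Casp1KO mice. Jam2, an adhesion molecule of endothelium, had log2 fold changes of 0.90 in RC/RC against WT (edgeR adjusted p = 0.0773) and of -0.76 in RC/RC:Casp1KO against RC/RC (edgeR adjusted p = 0.0596). Against WT none of the 28 was called in RC/RC:Casp1KO mice, and the median log2 fold change was -0.02.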

How the data were processed

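Kidney poly(A) RNA of 12 mice was sequenced, and the submitters' processing notes name CASAVA 1.8, STAR and the mouse build mm10. The counting tool, annotation and strand setting are not given in the sources used here. The authors deposited raw read counts per gene and mouse, without normalization, with gene lengths in base pairs. Their FPKM values, group means, fold changes and p-values stand in the same table and were not used. Column names give the group and a mouse number, so a column could be tied to its group but not to one labelled sample, and columns of another series numbered 0. No 2 mice of a group were alike within sampling noise (18 pairs, lowest chi-square per degree of freedom 15.7 over genes whose 2 counts sum to at least 20).

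Genes were tested with edgeR 4.0.16 (R 4.3.3), quasi-likelihood, TMM factors (0.929 to 1.08) and filterByExpr, without covariates, in fits of 8 mice, with Benjamini-Hochberg adjustment over all genes tested. The SE was taken as the size of the log2 fold change over the root of its F value, and 95% intervals span 1.96 SE to each side. This normal quantile makes the intervals narrower than the test implies, so the 95% is nominal throughout. For Cldn19 in RC/RC:Casp1KO against WT the interval ran from 0.006 to 0.59, though the unadjusted edgeR p was 0.0766. The RC/RC against WT fit was also run on simulated counts with known changes. The simulated mice were independent and held no close pairs, so that run cannot speak to the pairs found here. Group separation means that all mice of a group lie above all of the other in CPM. Coordinates of the table match RefSeq GRCm38.p6 to within 1000 bases for 42 of 55 members matched by symbol. Promoter windows are from RefSeq GRCm38.p6, which held 39 members.

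The alternatives were RLE factors, library size alone, DESeq2 1.42.0, all genes with at least 1 count, at least 10 counts in every mouse, a shared fit of 12 mice, and leaving out each mouse. Values were given for every mouse for members called in any comparison and for 18 members and lists fixed by name, and for other members as a level or fold change. The values of 1 member that enters the counts are not reported here. Members, gene lists, cell type markers and tests were chosen with earlier results of these data known. Whether the mice came from separate litters is not given in the sources used here, so p-values measure the spread between these mice.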

Additional observations from a re-analysis of the deposited data

Results flagged for a closer look

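In groups of 4 mice a value was singled out when the highest or lowest mouse lay apart from the nearest other mouse by more than Dixon's 95% critical value for the gap as a share of the group's range. Of 111 groups, for members tested in at least 1 comparison, 7 held such a mouse, where chance singles out about 1 group in 20. Cldn11 was at 8.40 CPM in WT mouse 3 against 0.141 to 0.286 CPM in the other WT mice, and the same mouse had 38.3 CPM of urothelial markers against 3.34 to 8.85 CPM. Cdh13 was lowest in WT mouse 3, at 8.30 CPM against 10.4 to 10.8 CPM. WT mouse 1 was highest for Cdh11 at 20.2 CPM (others 12.7 to 13.9 CPM) and for Cldn15 at 18.4 CPM (others 13.8 to 14.1 CPM). Cldn12 was highest in WT mouse 2 at 124 CPM, against 97.1 to 99.5 CPM. Cdh1 was highest in RC/RC mouse 1 at 238 CPM, against 164 to 167 CPM. Without this mouse, but in no other leave-out, Cdh1 was called lower in RC/RC than in WT mice. Cldn2 was highest in RC/RC:Casp1KO mouse 1 at 610 CPM, against 442 to 465 CPM. The causes were not tested.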

How the results depend on the processing

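Of 964 alternative values for named members, 872 kept their direction and their side of the threshold, 21 lost a call, 24 gained one and 47 changed sign. No paired analysis was possible because the columns carry mouse numbers and not the replicate numbers of the labels. Genes called in RC/RC against WT numbered 1971 (DESeq2 3027, leave-one-out 1162 to 2440), in RC/RC:Casp1KO against RC/RC 1797 (library size alone 998, DESeq2 3172, leave-one-out 438 to 2789) and in RC/RC:Casp1KO against WT 311 (DESeq2 1387, at least 10 counts in every mouse 167, leave-one-out 108 to 547). Library size alone moved the share of calls that were higher from 75.4% to 86.1%, from 62.1% to 81.8% and from 55.9% to 79.8% in these comparisons. The shared fit moved these shares to 67.5%, 55.5% and 67.9%. With a mouse left out they ran from 67.5% to 84.2%, from 51.1% to 87.0% and from 47.8% to 60.5%. Library size alone also moved the median log2 fold change of all genes in RC/RC:Casp1KO against WT from 0.01 to 0.14.

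Members called lower in RC/RC against WT were 0, or 2 with DESeq2 (Cldn2 and Cldn8) and 0 to 2 in the leave-one-out fits, and members called higher were 5, or 7 with DESeq2 and in the shared fit (Cldn1 and Cdh5 added), 4 at 10 counts in every mouse and 3 to 6 with a mouse left out. In RC/RC:Casp1KO against RC/RC members called lower were 2, or 0 with library size alone, 6 with DESeq2 (Cldn5, Cldn15, Cdh5 and Cdh11 added), 4 in the shared fit and 0 to 6 with a mouse left out, and members called higher were 0 to 2 with a mouse left out. In RC/RC:Casp1KO against WT library size alone called 2 members higher, DESeq2 2 higher and 2 lower, and the leave-one-out fits 0 to 1 lower.

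Every change of sign was in a value that was not called. Library size alone turned the log2 fold change of Cldn16 in RC/RC against WT to 0.065, and those of Cldn5, Epcam, Cdh1 and Cdh2 in RC/RC:Casp1KO against WT to 0.10, 0.092, 0.069 and 0.0042. With a mouse left out, log2 fold changes in RC/RC against WT ranged from -0.15 to 0.049 for Cldn16, -0.12 to 0.16 for F11r and -0.56 to 0.80 for Cdh6. Those in RC/RC:Casp1KO against RC/RC ranged from -0.33 to 0.057 for Cldn19, -0.088 to 0.24 for Cldn8, -0.062 to 0.20 for Cldn1, -0.062 to 0.21 for Cdh2 and -0.12 to 1.02 for Cdh6. Those in RC/RC:Casp1KO against WT ranged from -0.12 to 0.29 for Cldn4, -0.14 to 0.19 for Cldn7, -0.16 to 0.078 for Cldn5, -0.25 to 0.13 for Epcam, -0.25 to 0.022 for Cdh2, -0.052 to 0.10 for Cdh5 and -0.023 to 0.060 for Cdh16. In the comparisons with WT, Cldn6 could not be tested at 10 counts in every mouse. The cause of these changes was not tested.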

Other observations

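The remaining marker lists were read in the same libraries. Erythroid genes (Alas2, Hba-a1, Hbb-bs and Hbb-bt, with Hbb-bs the most abundant) summed to 671 ± 169 CPM in WT, 216 ± 64.5 CPM in RC/RC and 290 ± 79.0 CPM in RC/RC:Casp1KO mice (SD, n = 4), and all 4 were called lower than WT in both cystic groups. Injured tubule markers summed to 20.5 ± 4.33 CPM in WT against 193 ± 43.4 CPM in RC/RC mice, with all 4 called higher. Leukocyte markers summed to 20.3 ± 1.79 CPM in WT against 45.0 ± 6.86 CPM in RC/RC mice, with all 4 of those in the table called higher. In RC/RC:Casp1KO mice these sums were 68.7 ± 64.0 CPM for injured tubule and 42.1 ± 27.5 CPM for leukocyte markers, with mouse 3 highest for both and none called against RC/RC. No thick ascending limb, intercalated cell or urothelial marker was called in any comparison, and their sums in WT were 5564 ± 1277, 386 ± 175 and 14.7 ± 15.9 CPM. The same sums were 3911 ± 922, 238 ± 30.9 and 19.0 ± 11.2 CPM in RC/RC mice and 4702 ± 1209, 269 ± 64.4 and 16.7 ± 4.25 CPM in RC/RC:Casp1KO mice.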
